A study of Caenorhabditis elegans with 5 samples.

Results

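The insulin-like peptides of C. elegans are small secreted proteins related to human insulin, and 10 of their genes are described here: daf-28, ins-1, ins-4, ins-6, ins-7, ins-11, ins-18, ins-33, ins-35 and ins-37. They were picked by gene symbol and not by any measured value, and all 10 were found among the 19176 genes and other features in the count tables. RNA had been sequenced from whole wild type N2 worms, in 2 libraries at L4, the last larval stage, and 3 libraries at Day 6 of adulthood. Worms of both ages ate E. coli HT115 that carried the L4440 vector with no insert, at 20° on plates with 2 mM IPTG, so none had a gene knocked down. The Day 6 adults had also spent their adult life on 25 µg/mL FUdR, a blocker of DNA synthesis that keeps adults from producing offspring, whereas the L4 larvae had met none. Age and FUdR therefore cannot be told apart in any difference below. No genotype other than wild type was sequenced in these libraries.

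Insulin-like peptides are made as longer precursors, cut to their final form, stored in dense-core vesicles and released. They bind the insulin receptor DAF-2, some as agonists and some as antagonists. An active receptor works through PI3 kinase and the kinases PDK-1 and AKT to keep the transcription factor DAF-16, a FOXO protein, out of the nucleus. The pathway is known for its part in dauer arrest, a resting larval form, and in lifespan, fat storage and resistance to stress and pathogens. Many of the peptides come from a few sensory neurons and others from the gut or skin, so in RNA of whole worms each gene is a faint signal from a small part of the body. In such bulk samples, fewer cells of a type and less RNA per cell cannot be told apart.

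Total counts per library ran from 9368922 to 29247719, and the highest count of any of the 10 genes in any library was 106. Of the 10 genes, 7 had counts in every library. Levels are given in CPM, counts per 1000000 counts after TMM scaling of the library sizes, and L4 replicate 1 stood apart in that scaling, with a TMM factor of 0.293 against 1.03 to 1.63 in the other 4 libraries. A low factor raises the CPM values of a library, and raw counts are given beside them for that reason. Coordinates are those of the WBcel235 assembly. The exon lengths of the 10 genes, 382 to 955 bases, are short beside the median of 1392.5 bases over all genes tested. Over the 3098 tested genes in that length range, the median log2 level of L4 replicate 1 was 0.52 above the Day 6 mean, against -0.83 over all genes. In L4 replicate 2 the medians were 0.06 and -0.07. The part of this length trend in the results was not tested in single genes other than by the alternatives that remove it.

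Of the 10 genes, 8 had enough counts to be tested, and ins-35 was the only one that changed by edgeR's quasi-likelihood test with Benjamini-Hochberg adjustment over 12758 genes. It fell from L4 to Day 6, at an adjusted p of 0.0201. In the whole table, 14.3% of the genes tested rose and 12.5% fell, so that 0 of 8 members rising and 1 of 8 falling is no more than the background. At an unadjusted p under 0.05 there was 1 member with a higher level at Day 6, ins-7, and 2 with a lower level, ins-35 and ins-37. DESeq2 and voom each called these 3 genes, ins-7 higher and the other 2 lower, against 18% of all genes rising and 21.7% falling with DESeq2, and 16.8% and 12.4% with voom. The median log2 fold change of the 8 was 0.15, near the 0.08 of all genes tested, and 5 of the 8 were positive. The account that follows takes the genes by what their products do.

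**Figure D1:**
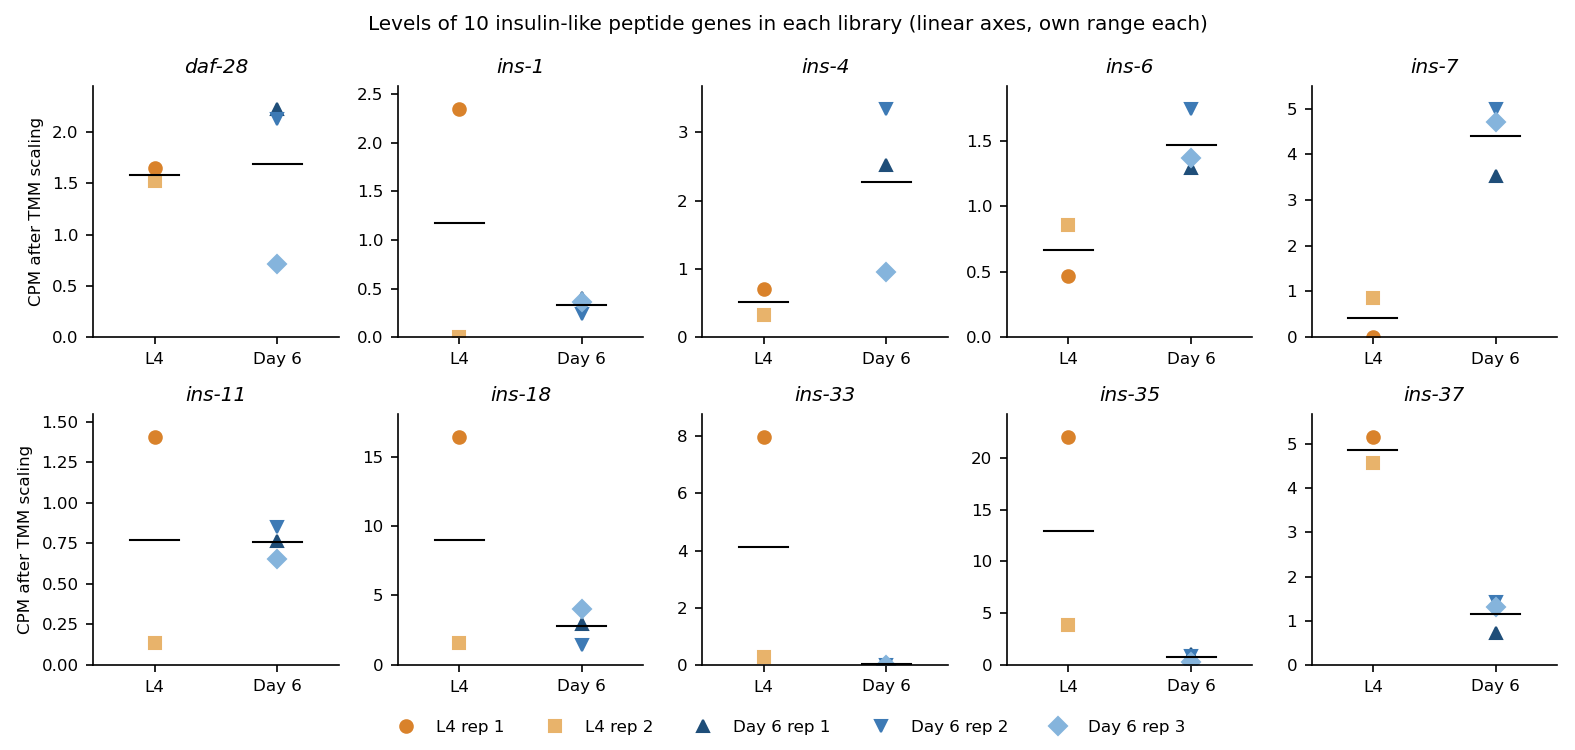
Level of each of the 10 insulin-like peptide genes in every library, in CPM after TMM scaling on linear axes with their own range for each gene. Each point is a library and each black line the mean of an age. The points of ins-35 at L4 lie at 22.1 and 3.84 CPM, above all 3 Day 6 points, and those of ins-7 at Day 6 lie between 3.52 and 5.0 CPM, above both L4 points.

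The peptide genes of the chemosensory neurons come first. DAF-28 is an agonist made in the ASI and ASJ sensory neurons that opposes entry into dauer. Its gene, daf-28 (WBGene00000920), lies on chromosome V from 19815133 to 19816454, on the plus strand, with 3 exon blocks and 2 annotated transcripts. It had 7 and 23 counts in the L4 libraries and 67, 45 and 12 in Day 6 replicates 1, 2 and 3. In CPM these were 1.64 and 1.52 at L4 against 2.22, 2.12 and 0.715 at Day 6, so the L4 values lay inside the range of the adults. The log2 fold change was 0.10 with a standard error of 0.82 (adjusted p = 0.933, edgeR, Benjamini-Hochberg), and its sign depended on the scaling, being negative with median-ratio or upper-quartile factors. Among the 3 Day 6 libraries, replicate 3 had the lowest daf-28 level and also the lowest ins-4 level.

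INS-6 is an agonist of the ASI and ASJ neurons too, and promotes exit from dauer. ins-6 (WBGene00002089; chromosome II, 6000436 to 6001009, plus strand) had 2 and 13 counts at L4 and 39, 37 and 23 at Day 6. Its CPM values of 0.470 and 0.860 at L4 lay below the 1.29, 1.74 and 1.37 of Day 6, with no overlap between the ages. The log2 fold change of 1.07 (SE 0.81) did not pass the test (edgeR, Benjamini-Hochberg adjusted p = 0.345), and with library size alone the ages overlapped. It was positive in all 16 alternatives, from 0.77 to 1.64, and called in none.

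INS-4 is an agonist that, like DAF-28, works against dauer entry. ins-4 (WBGene00002087; chromosome II, 5996366 to 5997008, plus strand) had 3 and 5 counts at L4, and 76, 71 and 16 at Day 6. In CPM, 0.705 and 0.331 at L4 stood against 2.52, 3.35 and 0.953 at Day 6. Every Day 6 library was above both L4 libraries, though Day 6 replicate 3 only just. Over all 5 libraries the log2 fold change was 2.24 (SE 0.99) and did not pass (edgeR, Benjamini-Hochberg adjusted p = 0.124). Without L4 replicate 1 it was 2.85 with an adjusted p of 0.0453, in a fit where 26% of all genes rose and 24.1% fell, and where L4 is a single library whose spread is taken from the adults.

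Of these neurons' own markers, those that passed the test were higher in adults. They had enough counts to be tested only through Day 6, where they are high, so their calls are given as a description. Of 16 listed markers of chemosensory and ciliated neurons 15 were in the tables, 5 were tested, 2 rose, and none fell. Of all genes tested, 14.3% rose and 12.5% fell. The summed level of the markers was 2.82 and 6.29 CPM at L4 and 8.99 to 11.5 CPM at Day 6. The markers that rose were gpa-4, a G protein subunit of the ASI neurons, with 0 counts in both L4 libraries and 49, 20 and 16 at Day 6, and osm-3, a kinesin of sensory cilia, which lost its call with the exon length trend removed (adjusted p = 0.0611). The channel gene ocr-2 had 2 and 50 counts at L4 and 29, 27 and 14 at Day 6 and did not pass. The listed marker daf-10 had 2 and 8 counts at L4 and 5, 0 and 1 at Day 6. In CPM it was lower in every adult library, and it was not tested. The 5 markers gpa-4, str-3, trx-1, osm-6 and che-11 were at 0 in both L4 libraries, so the defining ASI and ASJ genes str-3, gpa-4 and trx-1 were not detectable there at this depth. At Day 6 str-3 was hardly seen either, with 0, 3 and 0 counts. At Day 6, daf-7, a TGF-beta ligand of ASI, had 77, 62 and 53 counts against 0 and 28 at L4 and did not pass. None of 14 markers of neurons at large passed the test, with summed levels of 172 to 374 CPM at L4 and 257 to 377 CPM at Day 6. The part of these levels in the daf-28, ins-6 and ins-4 values was not tested.

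INS-7 is an agonist made in the gut and in neurons whose gene is itself repressed by DAF-16, which makes it part of a feedback loop between tissues. ins-7 (WBGene00002090; chromosome IV, 9682011 to 9682845, minus strand) had 0 and 13 counts at L4 and 106, 106 and 79 at Day 6. The mean level was 0.430 ± 0.608 CPM in larvae (SD, n = 2) and 4.41 ± 0.782 CPM in adults (SD, n = 3). The libraries did not overlap under any of the 4 scalings, but the log2 fold change of 3.04 (SE 1.04) missed the threshold (edgeR, Benjamini-Hochberg adjusted p = 0.0629). It was called in 7 of 16 alternatives and was positive in all 16, with adjusted p from 0.000511 to 0.368. Without L4 replicate 1, the library with no ins-7 count, the log2 fold change was 2.42 and passed, with an adjusted p of 0.00999. Once the exon length trend was taken out of each library it was 3.37, with an adjusted p of 0.0482, where 13.9% of all genes rose and 17.5% fell.

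INS-35 is a peptide of the gut that favours reproductive growth over dauer. ins-35 (WBGene00002118; chromosome V, 20375536 to 20376302, plus strand) had 94 and 58 counts at L4, and 33, 18 and 4 at Day 6. Its CPM values were 22.1 and 3.84 at L4 and 1.1, 0.848 and 0.238 at Day 6, so both L4 libraries were above all 3 adult libraries while differing greatly from each other. The means were 13 ± 12.9 (SD, n = 2) and 0.727 ± 0.441 (SD, n = 3). The log2 fold change was -4.10 (SE 0.95, edgeR, Benjamini-Hochberg adjusted p = 0.0201), and its size rested in large part on L4 replicate 1. Without that library it was -2.27 and still passed (adjusted p = 0.0392). With the length trend removed as well it was -1.79 and did not pass (adjusted p = 0.0884), where 24.9% of all genes fell. Scaled by library size alone it was -2.75 (adjusted p = 0.208), where 1.37% of all genes fell. Leaving out any single Day 6 library gave log2 fold changes from -4.54 to -3.73, and the call was lost. The adjusted p was then between 0.072 and 0.088 (edgeR, Benjamini-Hochberg). In these fits 2.38%, 4.14% and 2.49% of all genes fell, without replicates 1, 2 and 3 in turn, against 12.5% with all 5 libraries.

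**Figure D2:**
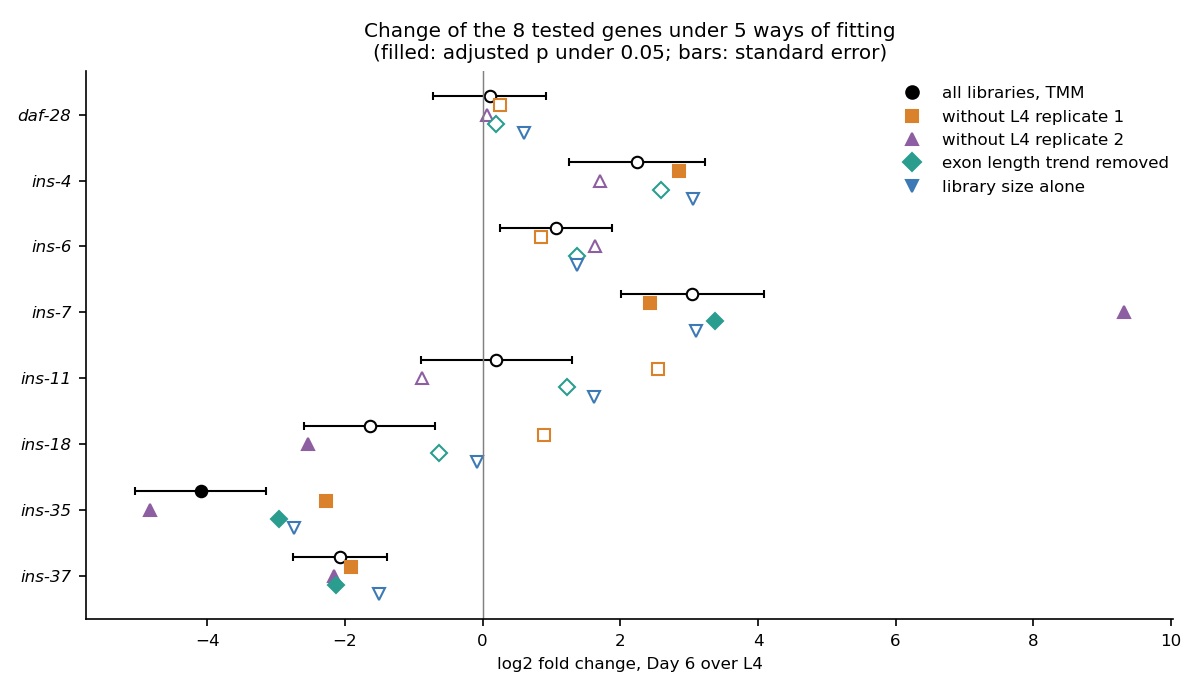
Log2 fold change from L4 to Day 6 of the 8 insulin-like peptide genes tested, over all 5 libraries with standard errors, and as points without L4 replicate 1, without L4 replicate 2, with the exon length trend removed and with library size alone. Filled points have an adjusted p under 0.05, and the ins-7 point without L4 replicate 2 depends on the prior count because L4 replicate 1, the L4 library that remains, held no ins-7 count. The values of ins-35 and ins-37 are below 0 and those of ins-4, ins-6 and ins-7 above 0 in each, while ins-18 is at -1.64 with all libraries and at 0.89 without L4 replicate 1.

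INS-11 is a gut peptide whose gene is induced by the pathogen Pseudomonas aeruginosa and limits learned avoidance of it. The worms here had been given none. ins-11 (WBGene00002094; chromosome II, 5556731 to 5557173, plus strand) had 6 and 2 counts at L4 and 23, 18 and 11 at Day 6. The CPM values of 1.41 and 0.132 at L4 lay on either side of the 0.764, 0.848 and 0.655 of Day 6, whereas with library size scaling all adult libraries were above both L4 libraries. The log2 fold change was 0.20 (SE 1.1, edgeR, Benjamini-Hochberg adjusted p = 0.902), negative with median-ratio or upper-quartile factors, and 2.54 without L4 replicate 1 (adjusted p = 0.14). No direction can be given for ins-11 at this depth.

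Gut markers moved beside these 3 gut genes, and not in the direction of ins-7. Of 11 intestine markers 4 fell and none rose, where 12.5% of all genes tested fell and 14.3% rose. The summed level of the 11 was 43175 and 8494 CPM in L4 replicates 1 and 2 and 2395 to 4048 CPM at Day 6. Most of that sum was asp-1, with 29685 and 4938 CPM at L4 and 1748 to 3208 CPM at Day 6. asp-1 did not pass (log2 fold change -2.86, SE 1.28, edgeR, Benjamini-Hochberg adjusted p = 0.13). Nor did elt-2 and elt-7, at -0.50 and -1.04. The median log2 fold change of the 11 was -1.87, and -1.59 without L4 replicate 1, beside 0.08 and 0.07 for all genes. No intestine marker was at 0 in all libraries. Adults thus had higher ins-7 values and lower ins-35 values beside lower summed gut markers, and the part of the gut markers in either was not tested.

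INS-1 is the worm peptide most like human insulin, with a C peptide, and favours dauer arrest when overproduced. ins-1 (WBGene00002084; chromosome IV, 10436701 to 10438412, plus strand) had 10 and 0 counts at L4 and 12, 5 and 6 at Day 6, too few for the filter on low counts, and was not tested. The ratio of summed levels, L4 over Day 6, was 1.53 with an exact 95% interval of 0.65 to 3.34, which covers counting error only. The L4 counts all came from replicate 1. Without it L4 was at 0 and Day 6 was at least 1.7-fold higher, taking 3 counts summed over the group as the floor, so the order of the ages turned on 1 library.

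INS-18 acts as an antagonist of the receptor when overproduced. ins-18 (WBGene00002101; chromosome I, 8147427 to 8149651, plus strand) had the most counts of the remaining genes, 70 and 24 at L4 and 89, 31 and 68 at Day 6. The CPM values were 16.4 and 1.59 at L4 and 2.95, 1.46 and 4.05 at Day 6, and the level of L4 replicate 1 lay far above the rest while L4 replicate 2 lay inside the adult range. The log2 fold change was -1.64 (SE 0.95, edgeR, Benjamini-Hochberg adjusted p = 0.223), and the 2 L4 libraries gave opposite directions. It was 0.89 without L4 replicate 1 (adjusted p = 0.322) and -2.54 without L4 replicate 2 (adjusted p = 0.00052, where 24.2% of all genes fell).

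ins-33 is a gene of the larval skin whose transcription is held down by the heterochronic factor LIN-14 early in development. ins-33 (WBGene00002116; chromosome I, 13637845 to 13639311, minus strand) had 34 and 4 counts at L4 and 2, 0 and 0 at Day 6. It was the only one of the 10 genes with no count in more than 1 adult library, and did not pass the filter on low counts. The ratio of summed levels, L4 over Day 6, was 66.8 with an exact 95% interval of 17.3 to 572. From L4 replicate 2 alone it was 9.02 with an interval of 1.29 to 99.7, so most of its size came from L4 replicate 1. Of the markers of the hypodermis, the worm's skin, those that passed the test were also lower in adults. Of the 10 on that list 6 fell and none rose, where 12.5% of all genes tested fell and 14.3% rose. Summed levels of the list were 3893 and 3135 CPM at L4 and 227 to 413 CPM at Day 6. elt-3, nhr-23, nhr-25 and col-19 did not pass, at log2 fold changes of -0.61, 0.88, -0.23 and 0.21. The part of these markers in the ins-33 counts was not tested.

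ins-37 (WBGene00002120; chromosome II, 13835101 to 13836107, minus strand) had 22 and 69 counts at L4 and 22, 30 and 22 at Day 6. In CPM the L4 libraries were close to each other, at 5.17 and 4.57, and lay above the adult values of 0.730, 1.41 and 1.31. Larvae had a mean of 4.87 ± 0.425 (SD, n = 2) and adults 1.15 ± 0.368 (SD, n = 3). The log2 fold change of -2.08 (SE 0.68) missed the threshold (edgeR, Benjamini-Hochberg adjusted p = 0.057). It was called in 8 of 16 alternatives and negative in all of them. Scaled by library size alone the ages overlapped. Exons of ins-37 share 171 bases with the snRNA gene F08G2.9 on the same strand and 192 bases with the ncRNA gene R05D7.8 on the other. Since the strand setting of the counting is not stated, part of its counts may be reads of those genes.

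Of the 8 tested genes, 3 had Day 6 levels above both L4 libraries in every adult library after TMM scaling, namely ins-4, ins-6 and ins-7, where 35.4% of all genes tested did. There were 2 with Day 6 below L4 throughout, ins-35 and ins-37, where 23.4% of all genes did. Scaled by library size alone the genes above were ins-4, ins-7 and ins-11 (34.9% of all genes) and ins-35 alone was below (12.3%). Of the tested genes, ins-4, ins-7 and ins-35 thus lay on 1 side under both scalings, as did the untested ins-33, and with median-ratio factors ins-4 overlapped.

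The summed counts of the 10 genes overlapped between the ages, while the shares of several genes in them did not. Together they had 248 and 211 counts at L4, and 469, 361 and 241 at Day 6, which in counts per 1000000 total counts is 17.1 and 22.5 at L4 and 16, 27.7 and 18 at Day 6. After TMM scaling L4 replicate 1 stood above the rest, with 58.2 CPM against 14 to 17 in the other 4 libraries. Each library had counts for at least 9 of the 10 genes. The share that each gene takes of this pool does not depend on how libraries are scaled against each other. It can still carry the length trend of L4 replicate 1, as exon lengths run from 382 bases for ins-35 to 955 for ins-37. That part was not tested. ins-35 took 37.9% and 27.5% of the pool in the L4 libraries and 7.04%, 4.99% and 1.66% at Day 6, and was the most counted of the 10 in L4 replicate 1. Day 6 libraries instead had most counts in ins-7, with 22.6%, 29.4% and 32.8% of the pool against 0% and 6.16% at L4.

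Shares of the other genes differed by smaller amounts or not between the ages. ins-4 took 1.21% and 2.37% at L4 and 16.2%, 19.7% and 6.64% at Day 6, and ins-11 2.42% and 0.948% against 4.9%, 4.99% and 4.56%. ins-6 took 0.806% and 6.16% against 8.32%, 10.2% and 9.54%. None of these 3 overlapped between the ages, while daf-28, ins-1, ins-18 and ins-37 did. ins-37 was the most counted gene in L4 replicate 2, with 32.7% of the pool, but took 8.87% in L4 replicate 1. ins-33 took 13.7% and 1.9% at L4, and 0.426%, 0% and 0% at Day 6. The shares are a description, since a larger share of 1 gene lowers those of the rest.

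**Figure D3:**
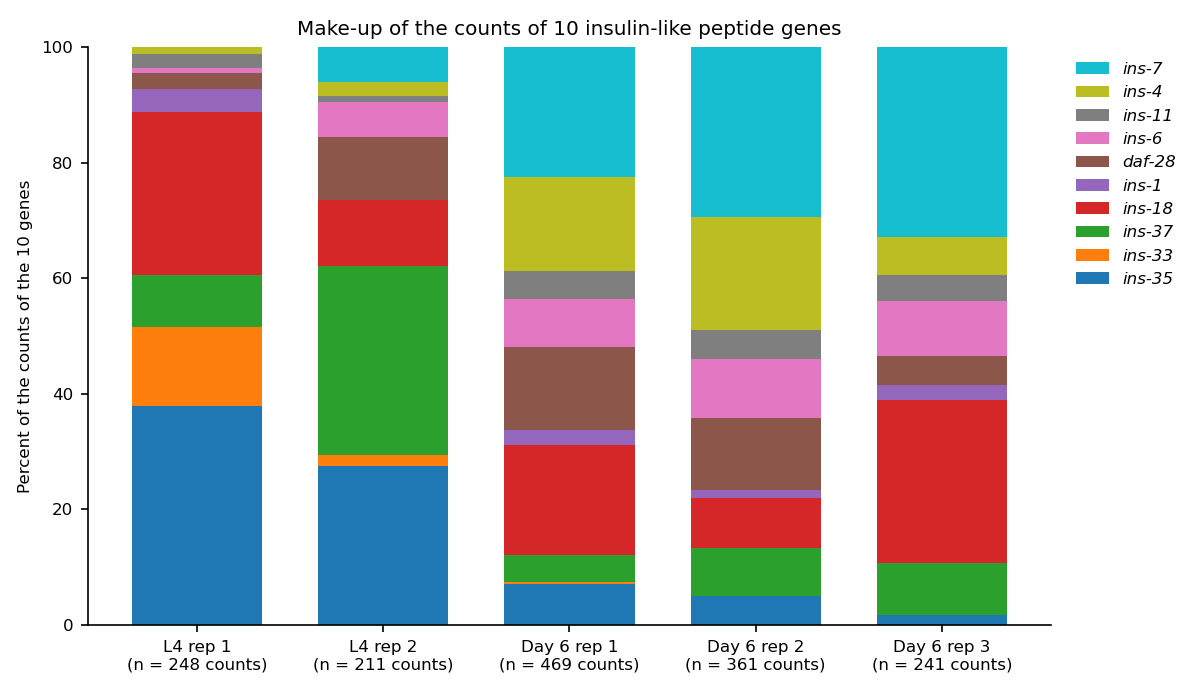
Share of the pooled counts of the 10 insulin-like peptide genes taken by each gene, in percent, with 1 bar for each of the 5 libraries. ins-35 takes 37.9% and 27.5% in the L4 bars and at most 7.04% in the Day 6 bars, and ins-7 takes at most 6.16% at L4 and 22.6% to 32.8% at Day 6.

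Put against each other alone, ins-7 and ins-35 traded places. This pair was chosen after its values were seen and is given without a test. Of the counts of both genes, ins-7 made up 0% in L4 replicate 1 (0 of 94, exact 95% interval 0% to 3.85%) and 18.3% in L4 replicate 2 (13 of 71, 10.1% to 29.3%). At Day 6 it made up 76.3% in replicate 1 (106 of 139, 68.3% to 83.1%), 85.5% in replicate 2 (106 of 124, 78.0% to 91.2%) and 95.2% in replicate 3 (79 of 83, 88.1% to 98.7%). The 2 exon lengths are alike, at 422 bases for ins-7 and 382 for ins-35. The intervals cover counting error only, and those of the L4 and Day 6 libraries did not meet.

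Per kilobase of exon, the order of the mean levels differed between the ages. At L4 the highest mean level was that of ins-35, 33.9 ± 33.8 CPM per kb (SD, n = 2), followed by ins-18 at 20.9, ins-33 at 7.92 and ins-37 at 5.10 ± 0.445. The first 3 did not differ from their neighbours beyond the spread of the L4 libraries. ins-37 stood clear of the next gene, daf-28 at 2.07, and below it ins-11, ins-1, ins-6, ins-7 and ins-4 followed with overlapping ranges down to 0.885 CPM per kb.

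At Day 6 ins-7 was highest, at 10.4 ± 1.85 CPM per kb (SD, n = 3), its range overlapping that of ins-18 at 6.53 ± 3.01. Next were the neuronal agonists ins-4 at 3.89, ins-6 at 2.83 and daf-28 at 2.20, then ins-11 at 1.93 and ins-35 at 1.90 ± 1.16. Each of these overlapped the next in rank. Only at the bottom were genes separated, with ins-37 at 1.21, ins-1 at 0.412 and ins-33 at 0.042 CPM per kb. ins-7 thus stood ninth at L4 and first at Day 6, and ins-35 first and seventh.

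Outside the 10, the list of the family held 30 further genes, of which 28 were in the tables and ins-8 and ins-38 were not analysed here. Of the 28, 14 were tested, 3 rose and 2 fell, where 14.3% of all genes tested rose and 12.5% fell. The median log2 fold change of the 14 was 0.57 beside 0.08 for all genes. ins-15 and ins-21 had no count in any library. The 3 that rose were all but silent in L4 larvae and passed the filter on low counts only through Day 6, where they are high. Their calls are therefore given as a description. ins-19 had no count at L4, and 3.45, 0.424 and 2.20 CPM at Day 6, at least 14.2-fold higher by the same floor (edgeR, Benjamini-Hochberg adjusted p = 0.0362). ins-30 had 0 and 0 counts and 15, 34 and 10, at least 5.59-fold higher (adjusted p = 0.0444).

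The third, ins-34, had 0 and 1 count at L4 and 83, 30 and 22 at Day 6, a ratio of 38.4 with an exact interval of 6.77 to 1530 (adjusted p = 0.025), and shares 82 exon bases with nkcc-1 on the opposite strand. L4 replicate 1 held no count of these 3 genes, so leaving it out could not change their direction. ins-27 had the highest counts of the family in both L4 libraries, with 927 and 293 at L4 and 190, 96 and 93 at Day 6. It made up 66.8% and 40.4% of the counts of all 38 genes at L4 and 11.1% to 12.8% at Day 6. Its log2 fold change was -4.43 (SE 0.92, adjusted p = 0.0145), but -1.75 without L4 replicate 1 (adjusted p = 0.00201), so the size of the drop rested in large part on that library. ins-29 fell too, with 23 and 7 counts against 6, 4 and 1, and lost its call with the length trend removed (adjusted p = 0.0661).

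**Figure D4:**
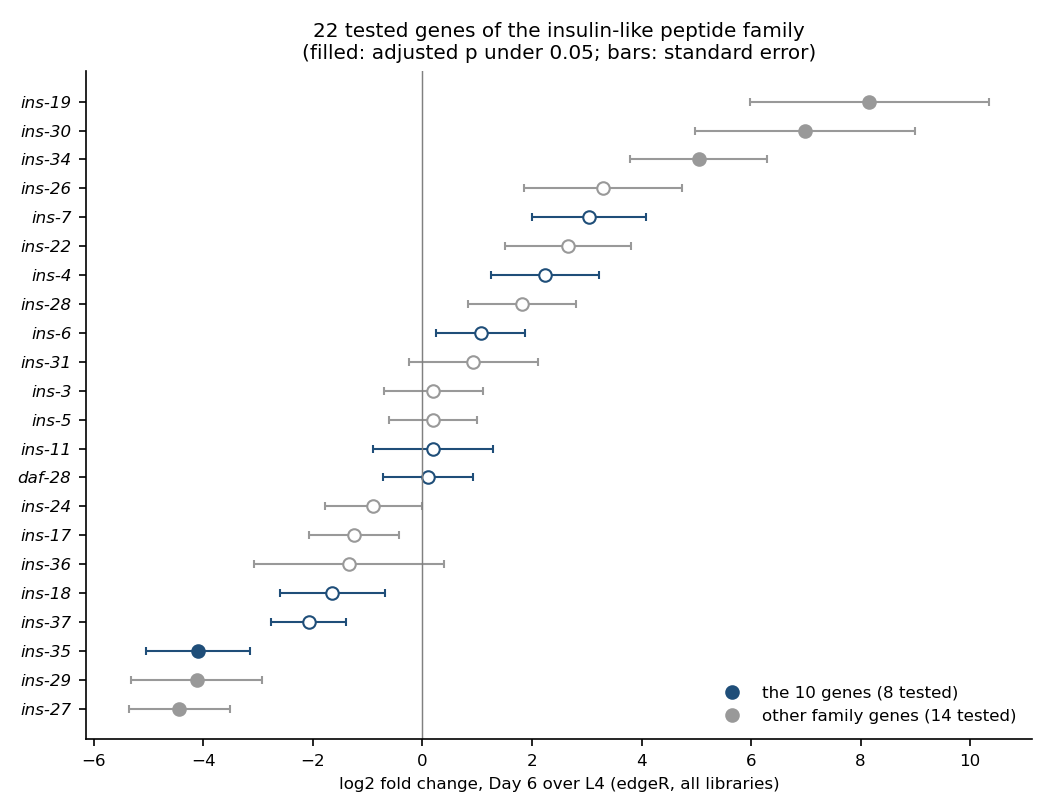
Log2 fold change from L4 to Day 6 of the 22 tested genes of the insulin-like peptide family, with standard errors, filled points for an adjusted p under 0.05, and the 8 genes of this account marked apart from the 14 others. ins-35 is at -4.10 beside ins-27 at -4.43 and ins-29 at -4.12, and the highest values belong to ins-19, ins-30 and ins-34, the first 2 of which had no L4 count, so that their fitted values depend on the prior count.

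Over all 38 genes the summed counts per 1000000 total counts were 95.5 and 77.5 at L4 and 50.7, 66.2 and 56.7 at Day 6, higher in both L4 libraries. After TMM scaling they were 326 and 48.0 CPM at L4 and 49.2, 40.7 and 45.3 at Day 6, and L4 replicate 2 lay inside the adult range. Counts were seen for 18 and 28 of the 38 genes at L4 and for 32, 32 and 27 at Day 6, in libraries of unequal depth, and the ages overlapped. Of the 10 genes, 4 lie within 20 kb of another gene of the family. ins-4 and ins-6 flank ins-5 on the same strand of chromosome II, with gaps of 549 and 1413 bases. The middle gene had 5 and 15 counts at L4 and 49, 16 and 22 at Day 6, and a log2 fold change of 0.20 (edgeR, Benjamini-Hochberg adjusted p = 0.864) beside 2.24 for ins-4 and 1.07 for ins-6. ins-12, 1370 bases from ins-11, had 0 and 6 counts at L4 and 3, 0 and 0 at Day 6 and was not tested.

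A peptide's output also depends on its cutting and release. Of 5 measured genes that process precursors 1 fell, where 12.5% of all genes tested did, and none rose. The 1 was aex-5, a proprotein convertase. Its level was 16 ± 9.62 CPM in larvae (SD, n = 2) and 2.84 ± 0.890 at Day 6 (SD, n = 3), a log2 fold change of -2.50 (SE 0.61, edgeR, Benjamini-Hochberg adjusted p = 0.0243). The call was lost with library size alone and when any Day 6 library was left out. Of all genes, 1.37% fell with library size alone, and 2.38% to 4.14% without 1 Day 6 library. The convertase gene egl-3, which cuts many neuropeptides, had 80.6 ± 65.4 CPM at L4 and 57.6 ± 22.3 at Day 6 and did not pass. The list's median log2 fold change was -1.12, but 0.83 without L4 replicate 1. Of 12 genes of dense-core vesicle release only vps-50 rose (log2 fold change 1.74, SE 0.54, adjusted p = 0.049), where 14.3% of all genes tested rose. With the length trend removed vps-50 was at 0.31 (adjusted p = 0.738). Its call was also lost with median-ratio or upper-quartile factors, library size alone, DESeq2 and at least 1 CPM in 2 libraries. The same held when any Day 6 library was left out.

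Where 14.3% of all genes tested rose and 12.5% fell, 2 of 10 genes downstream of the receptor rose and none fell. One of them was aap-1, the regulatory subunit of PI3 kinase, which went from 5.56 ± 3.55 CPM (SD, n = 2) to 46.5 ± 4.72 CPM (SD, n = 3), a log2 fold change of 3.03 (SE 0.61, edgeR, Benjamini-Hochberg adjusted p = 0.0134). Its call was lost with library size alone and without any 1 of the Day 6 libraries. Of all genes, 1.18% rose with library size alone, and 1.94% to 3.99% without 1 Day 6 library. The median log2 fold change of these 10 downstream genes was 0.83 without L4 replicate 1, beside 0.07 for all genes in that fit. The gene of DAF-16 itself had 27.6 ± 1.54 CPM at L4 and 33.5 ± 5.08 at Day 6 (log2 fold change 0.28, adjusted p = 0.66). Adults also held far more germline RNA, with 13 of 14 germline and oocyte markers higher and summed levels of 351 to 525 CPM at L4 and 6760 to 14146 CPM at Day 6, and its part in the aap-1 level was not tested.

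For each tested gene the genes of most similar pattern were sought, by the distance between log2 CPM profiles over the 5 libraries, each centred on its own mean. With 5 points, many genes share any shape. The nearest to ins-7 were cosa-1, a meiotic crossover gene, at a distance of 0.247 log2 units, and ttr-26, a transthyretin-like gene, at 0.30. Nearest to ins-35 were his-18, a histone gene, at 0.469 and grsp-4 at 0.742, and to ins-37 zig-1 at 0.334 and mrps-33 at 0.413. crh-1, a CREB transcription factor, was nearest to ins-6 at 0.166, followed by pfd-6 at 0.213.

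The other 4 had matches at similar or larger distances. For ins-18 the nearest genes were rbm-3.1 at 0.371 and his-15 at 0.451, for ins-11 npp-16 at 0.344 and sup-36 at 0.412, and for daf-28 nhr-132 at 0.456 and gopc-1 at 0.524. ins-4 had no near match, its nearest being col-158 at 0.717 and pho-14 at 0.745.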

How the data were processed

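Whole-worm RNA of wild type N2 was measured in 2 L4 and 3 Day 6 libraries. The values deposited by the authors are raw counts of reads for each gene. According to the methods and the submitters' notes, the authors depleted rRNA, prepared strand-specific cDNA, aligned single reads with TopHat2 to WormBase WS254 and counted with featureCounts, without versions. The strand setting and the handling of reads matching several genes are not given in the sources used here. Later steps of the authors with edgeR, limma and DESeq2 are not in these counts. The study describes independent biological replicates.

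Symbols were matched through WBGene IDs for 17860 of 19176 features, the rest by name. Coordinates and exon lengths are from the WBcel235 annotation of Ensembl release 115. In R 4.3.3, edgeR 4.0.16 tested the counts by quasi-likelihood with TMM, after filterByExpr (minimum count 10, minimum total 15), two-sided, in all 5 libraries with age as the only term. Benjamini-Hochberg adjustment covered the 12758 genes kept, and a gene rose or fell at an adjusted p under 0.05. Genes under the filter are given as counts, with ratios of summed counts over TMM library sizes and exact 95% intervals, or against 3 counts summed over the group as the floor. Intervals and floors cover counting error only.

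As alternatives, TMM was replaced by median-ratio factors (RLE), upper-quartile factors or library size alone, and the others were DESeq2 1.42.0, voom with limma 3.58.1, no filter, at least 1 CPM in 2 libraries, replicate blocks, removal of the trend of counts with exon length (lowess, span 0.3), each library left out, and the last 2 together for L4 replicate 1. Named genes were all 10 members, the other family genes called, up to 2 called genes in each direction of the other lists by mean CPM, and for likeness the 2 nearest genes outside the family. egl-3, daf-16, daf-7, daf-10, ocr-2, ins-5 and ins-12 were named after their values were seen. So were the markers str-3, trx-1, osm-6, che-11, elt-3, nhr-23, nhr-25, col-19, asp-1, elt-2 and elt-7. One other gene of the cascade list that was called is not reported here. The members and lists were chosen with earlier results of these data known. Protein and promoter sequences were not analysed here. Tables used pandas 2.3.3 and intervals scipy 1.17.1 under Python 3.11.15, and figures matplotlib 3.10.9.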

Additional observations from a re-analysis of the deposited data

How the results depend on the processing

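Counts of calls among the 10 genes moved with the setting. The number that rose, 0 of 8 tested, was 1 with DESeq2, voom, no filter on low counts or the length trend removed, each time ins-7, and 2 with the length trend removed and L4 replicate 1 left out. Leaving out 1 library gave 0 to 2. The number that fell, 1, was 2 with RLE, upper-quartile, DESeq2, voom, no filter and the length trend removed, 0 with library size alone, and 0 to 4 with 1 library left out. The cause was not tested. Tested genes of the 10 with every adult library below L4 numbered 1 in place of 2 with library size alone.

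The titles and the library names number the L4 libraries differently, so pairing is not settled. Deviations from the group means correlated at 0.34 and 0.27 for the title pairs and at -0.27 and 0.13 for the library-name pairs. The deviations of the 2 L4 libraries are exact opposites, so 0.27 and -0.27, both with Day 6 replicate 2, are 1 value with its sign turned. The correlations therefore do not decide between the 2 numberings. With the replicate block by title number 0 of the 10 genes fell and by library-name number 0, and ins-35 was at -3.27 (adjusted p = 0.0802, edgeR) and -4.36 (adjusted p = 0.0698). Over all genes tested, 817 rose and 645 fell with the replicate block by title. By library name 412 rose and 359 fell, against 1829 and 1601 without a block. aex-5 and vps-50 lost their calls with either block, and aap-1 with the block by library name.

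Among other insulin-like peptides, the 3 that rose became 0 with library size alone and with either block, 5 with the length trend removed and L4 replicate 1 left out, and 0 to 4 with 1 library left out. The 2 that fell became 0 with library size alone or the library-name block, 1 with voom, at least 1 CPM in 2 libraries, the title block and the length trend removed, alone or with L4 replicate 1 left out, and 0 to 3 with 1 library left out. In the whole table, library size alone gave 150 rising and 175 falling, DESeq2 2763 falling, RLE 1790 and 2002, upper-quartile 1545 and 2054, the length trend removed 1738 and 2186, and that with L4 replicate 1 left out 3564 and 3476. Leaving out 1 library gave 240 to 4837 and 298 to 3450. The median log2 fold change of all genes, 0.08, was -0.14 with RLE, -0.22 with upper-quartile, 0.46 with library size alone and 1.05 without L4 replicate 2.

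Some log2 fold changes that did not pass changed sign. daf-28 was at -0.14 with RLE and with DESeq2, -0.20 with upper-quartile, -0.028 with voom, -0.37 with the library-name block, and between -0.15 and 0.445 with 1 library left out. ins-11 was at -0.14 with RLE, -0.13 with upper-quartile, -0.25 with DESeq2 and between -0.88 (without L4 replicate 2) and 2.54 (without L4 replicate 1) with 1 library left out. ins-18 was at 0.89 without L4 replicate 1, -2.54 without L4 replicate 2 and 1.26 with the length trend also removed, and ins-5 at -0.036 with RLE and DESeq2, -0.12 with upper-quartile, -0.094 with the library-name block and between -0.081 and 0.419 with 1 library left out. Of 127 values of the 8 tested genes under the alternatives, 89 kept both direction and call. Counts of 0 to 106 in a library limit every value here, and a fit with 1 L4 library takes its spread from the adults.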
